A study of Mus musculus with 6 samples.

Results

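The genes described here are 40 G protein-coupled receptors that sense metabolites, nucleotides, protons, lipids or peptides, with Gpr35 among them and chemokine receptors left out. They were taken as a fixed list of symbols, which was chosen with earlier results of these data known. All 40 were found among the 21959 genes of the deposited FPKM table. FPKM are fragments scaled to the length of the gene and to the reads of the library. Levels are therefore set side by side between genes and between libraries. This scaling takes no account of the mix of RNA in a library, which differed between the groups, and some calls depended on the scaling, as given below. The libraries are labelled as neutrophils, which came from tumours that the hepatoma cell line Hepa1-6 had formed in mice. They had been divided by GPR35, and each of the GPR35-negative and GPR35-positive groups has 3 libraries. Mouse strain, age, sex, the site of the tumour, the way GPR35 was detected and whether a library came from 1 animal or a pool are not stated in the sources used here. No label ties the replicates to separate animals, so a p-value here reflects the spread among libraries alone, and that spread may be technical.

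These receptors cross the membrane with a bundle of helices and pass a signal to G proteins inside the cell when a small molecule binds outside. Metabolite receptors read the local supply of fatty acids, ketone bodies, lactate or succinate. Purine receptors read ATP, ADP, UDP and adenosine, which leak from damaged or dying cells. Lysolipid, platelet activating factor and formyl peptide receptors steer the movement and activation of leukocytes. GPR35 is still often called an orphan receptor, with kynurenic acid, a serotonin metabolite and lysophosphatidic acid among the proposed ligands. Neutrophils are known to carry FPR1, FPR2, the platelet activating factor receptor, HCAR2 and GPR97 (Adgrg3).

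Each library held 15742744 to 18314109 reads assigned to genes, as recovered from the steps between low FPKM values. A single read was then worth 0.0546 to 0.0635 FPKM for a gene 1 kb long. The labelled cell type was checked against its markers, and in all 6 libraries the hepatoma markers outweighed those of neutrophils. Mature neutrophil markers, all 15 of 15 higher in GPR35-positive libraries, summed to between 895 and 1147 FPKM in the GPR35-negative group and to between 9774 and 10724 FPKM in the other. Hepatocyte and hepatoma markers, 10 of 10 lower, summed to between 25251 and 26678 FPKM and to between 16852 and 17271 FPKM in the same order. In GPR35-negative libraries Trf and Krt18 averaged 10855 and 6522 FPKM, against 517 FPKM for S100a8 and 0.947 FPKM for Ly6g. These values go against the label of neutrophils, most of all in the GPR35-negative group, so the libraries are called by their labels without taking them as pure cells. Macrophage markers, 9 of 9 tested of 14 listed higher, went from between 36.9 and 50.4 FPKM to between 945 and 976 FPKM, while the resident macrophage genes Clec4f, Vsig4 and Timd4 averaged 0.0242, 0.0130 and 0 FPKM in the negative group and 0.00826, 0.0260 and 0.0536 FPKM in the positive group. Marker sums of other cells were low: dendritic cells had 8.74 to 11.6 and 22.1 to 23.6 FPKM, eosinophils, basophils and mast cells 4.75 to 7.76 and 14.5 to 18.0 FPKM, and endothelium 2.88 to 3.65 and 4.70 to 5.55 FPKM. T and NK cell markers had 5.52 to 7.09 and 5.61 to 6.31 FPKM, B cell markers 0.392 to 0.730 and 1.02 to 1.14 FPKM, and platelet markers, led by Ppbp, 61.2 to 80.4 and 69.3 to 72.8 FPKM, always with the GPR35-negative range given before the other. The part of these cells in the receptor results was not tested, except where receptors were set against the neutrophil markers below. In bulk RNA, fewer cells of a type and less RNA per cell cannot be told apart.

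Gpr35 (ENSMUSG00000026271, chr1:92950865-92986391, forward strand, GRCm38) separated the groups as their labels say. Its level was 2.03, 1.378 and 1.30 FPKM in the GPR35-negative libraries and 18.2, 21.9 and 20.4 FPKM in the GPR35-positive libraries. These values rested on 169, 113 and 99 reads and on 1506, 1732 and 1810 reads. The GPR35-negative libraries held a low level of the transcript, not none, and the groups did not overlap. On the log2(FPKM + 1) scale the difference was 3.05 (SE 0.12, adjusted p = 6.27e-09 by limma), and over all alternatives it stayed between 2.98 and 3.70. The groups had been divided by GPR35, so the design favours a difference in this gene and the p-value is only a check of the labels.

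The sequences upstream of Gpr35 and of 4 other receptors are shown because these genes mark both ends of the pattern. Ptafr, Fpr1 and Fpr2 are among the 5 receptors whose difference lay nearest to that of Gpr35, and Ffar4 had the lowest log2 fold change. Each is the 250 bases before an annotated RefSeq start (GRCm38.p6), 5′ to 3′ on the gene's strand. Capitals mark the letters GAGGAA or their reverse complement TTCCTC, the core of the motif of PU.1, an ETS factor of myeloid cells.
Gpr35, upstream start, chr1:92972869-92973118, forward strand: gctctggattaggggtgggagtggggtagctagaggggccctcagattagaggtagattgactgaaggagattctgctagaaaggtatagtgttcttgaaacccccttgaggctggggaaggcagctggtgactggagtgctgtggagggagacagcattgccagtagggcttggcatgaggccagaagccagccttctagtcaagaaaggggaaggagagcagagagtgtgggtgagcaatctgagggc
Gpr35, downstream start, chr1:92978653-92978902, forward strand: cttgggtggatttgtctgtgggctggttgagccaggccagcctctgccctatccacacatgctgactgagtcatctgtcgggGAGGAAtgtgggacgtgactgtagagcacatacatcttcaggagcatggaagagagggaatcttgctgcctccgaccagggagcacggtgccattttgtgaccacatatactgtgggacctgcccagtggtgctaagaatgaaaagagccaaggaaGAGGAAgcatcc
Ptafr, chr4:132563817-132564066, forward strand: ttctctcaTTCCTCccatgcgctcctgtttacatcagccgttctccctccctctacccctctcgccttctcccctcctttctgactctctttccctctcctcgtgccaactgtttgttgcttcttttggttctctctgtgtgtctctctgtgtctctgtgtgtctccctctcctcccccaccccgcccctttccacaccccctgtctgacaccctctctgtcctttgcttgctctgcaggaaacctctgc
Fpr1, chr17:17883940-17884189, reverse strand: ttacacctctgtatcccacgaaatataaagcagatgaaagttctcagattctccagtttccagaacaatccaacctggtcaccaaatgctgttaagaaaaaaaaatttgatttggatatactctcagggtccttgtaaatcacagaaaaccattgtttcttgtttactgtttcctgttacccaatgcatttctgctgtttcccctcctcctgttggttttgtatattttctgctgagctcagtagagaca
Fpr2, chr17:17887574-17887823, forward strand: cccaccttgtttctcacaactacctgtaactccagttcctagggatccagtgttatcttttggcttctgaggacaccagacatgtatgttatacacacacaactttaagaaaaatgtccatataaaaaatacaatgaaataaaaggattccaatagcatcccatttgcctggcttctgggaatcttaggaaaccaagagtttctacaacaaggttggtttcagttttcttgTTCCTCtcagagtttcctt
Ffar4, chr19:38096829-38097078, forward strand: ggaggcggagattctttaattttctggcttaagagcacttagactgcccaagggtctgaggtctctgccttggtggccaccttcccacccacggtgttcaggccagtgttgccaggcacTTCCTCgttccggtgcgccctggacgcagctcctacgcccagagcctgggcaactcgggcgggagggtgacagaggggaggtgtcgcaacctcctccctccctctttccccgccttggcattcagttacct

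Both Gpr35 windows lie inside the span of the gene and hold no annotated exon base. The downstream one holds the letters at 168 and 12 bases before the start, and the upstream one holds none. Ptafr holds them 242 bases, Fpr2 19 bases and Ffar4 131 bases before the start, while the Fpr1 window holds none. The letters were thus present for some of the receptors with a large rise and absent for others, and present for the one that fell. Of the 40 receptors, 33 had a promoter in the RefSeq table, and 19 of these (57.6%) had a window with the letters on either strand, beside 25.9% of 27025 genes. Counted by window, 24 of the 48 held them, beside 23.3% of 32851. Among the 25 matched receptors that rose, 12 had the letters. Of the matched receptors that fell or were not called, Ffar2, Ffar4, Gpr55, Hcar1, Sucnr1, P2ry10 and Hrh1 had them and only P2ry1 did not. The letters were therefore not more common among the receptors that rose. A match of letters is a description and not a binding site.

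Most of the receptors were higher in GPR35-positive libraries. The test was limma on log2(FPKM + 1), adjusted over all genes tested, with a threshold of 0.05. Over every gene above 0 in any library, 31 of the 40 receptors rose, 2 fell and 7 were not called, and the median of their log2 fold changes was 0.82. The same fit called 17.4% of 19818 genes higher and 22.1% lower, around a median of 0.00. As the list was chosen with earlier results of these data known, these counts describe it and are not an independent test. The 7 receptors not called were Gpr55, Hcar1, Sucnr1, P2ry1, P2ry10, Hrh1 and S1pr1. By raw position, all 3 GPR35-positive libraries lay above all 3 GPR35-negative ones for 32 receptors and below them for Ffar2 and Ffar4, against 21.3% and 27.4% of all genes. The 32 include Hcar1, whose replicate 2 had 1 read in each group, so its position there reflects depth alone.

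With the filter of at least 1 FPKM in at least 3 libraries, 28 receptors remained, of which 26 rose and 2 fell, beside 23.3% and 45.5% of 10060 genes. Only 10 of the 28 reached 1 FPKM in all libraries of both groups. For 15, the filter was passed through the GPR35-positive group alone, so they had to differ, and the count of 28 is not read further. Scaling by median of ratios moved the median over all filtered genes from -0.19 to -0.07 and their calls from 2342 higher and 4575 lower to 2731 higher and 3036 lower. Without a filter, that scaling left 31 receptors higher and 1 lower, Ffar2 being lost.

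**Figure D1:**
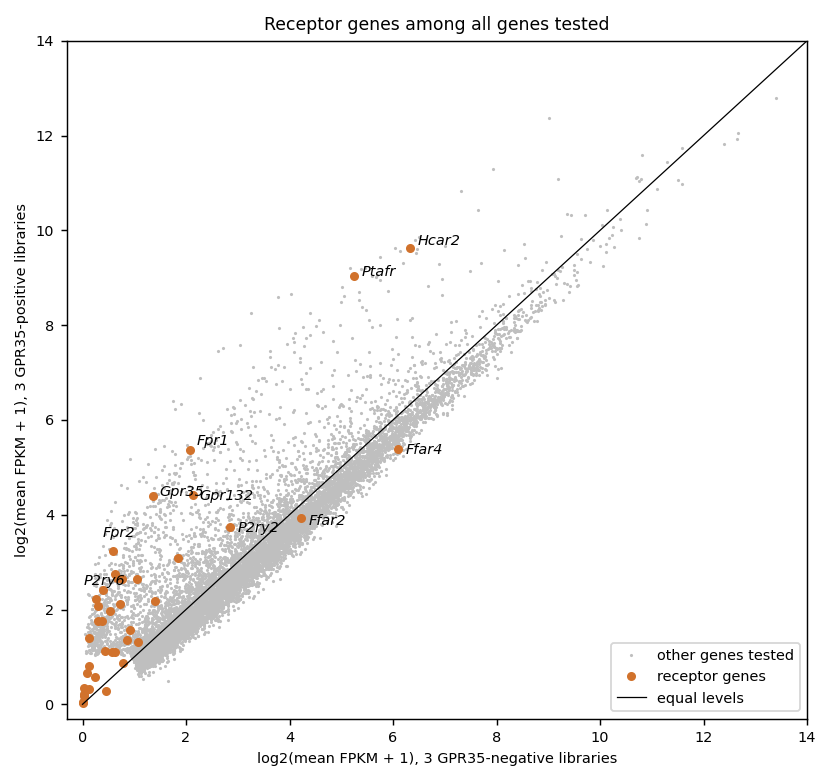
Mean level of each gene in the 3 GPR35-negative libraries (x axis) and the 3 GPR35-positive libraries (y axis), both as log2(mean FPKM + 1), with the 40 receptors in orange, other genes tested in grey and a line of equal levels. Hcar2 and Ptafr stand highest, most receptors lie above the line, and Ffar4 and Ffar2 lie below it.

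The orphan, lipid and proton receptors made up 11 of the list, and 10 rose without a filter, beside 17.4% of 19818 genes. Gpr132, known to respond to protons and oxidised fatty acids, was the most abundant beside Gpr35, with 4.12, 3.52 and 2.53 FPKM against 20.4, 20.7 and 19.5 FPKM. It was above Gpr35 in every GPR35-negative library and rose by less, 5.96-fold against 12.9-fold. Gpr141, an orphan receptor, went from 0.301, 0.366 and 0.266 FPKM to 4.47, 3.86 and 4.73 FPKM, which was 14.01-fold, the largest ratio of the class. Gpr65, a proton sensor, went from 0.981, 0.770 and 0.307 FPKM to 6.21, 5.39 and 4.17 FPKM. Its GPR35-negative libraries varied more, relative to their mean, than those of Gpr141.

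Gpr84, a receptor for medium-chain fatty acids, rose from 0.450 ± 0.0850 to 2.89 ± 0.368 FPKM (SD, n = 3 in each group). Gpr18, for which an arachidonoyl glycine and a resolvin have been proposed as ligands, rose from 1.09 ± 0.125 to 5.26 ± 0.108 FPKM. Gpr171 and Gpr160 rose 5.15-fold and 7.82-fold, both from under 1 FPKM. Gpr183, the oxysterol receptor that guides B cells and dendritic cells, rose least among the called members of the class. It went from 0.552 ± 0.1004 to 1.15 ± 0.118 FPKM (log2 fold change 0.47, adjusted p = 0.00285 by limma without a filter). Gpr34, a lysophosphatidylserine receptor known from microglia, had 7, 0 and 0 reads in GPR35-negative and 26, 17 and 19 reads in GPR35-positive libraries, and rose in the fit without a filter (adjusted p = 0.00215 by limma). Gpr55, a lysophosphatidylinositol receptor, had 0.717, 0.809 and 0.614 FPKM against 0.721, 1.05 and 0.748 FPKM, and these ranges overlapped. Its log2 difference of 0.10 had an interval from -0.11 to 0.31, and its exons overlap those of 4933407L21Rik on the opposite strand.

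Receptors for metabolite acids were the class that moved in both directions. Hcar2, the receptor of the ketone body beta-hydroxybutyrate and of niacin, was the most abundant receptor in both groups. The GPR35-negative libraries had 90.4, 82.3 and 64.8 FPKM and the GPR35-positive libraries 754, 820 and 804 FPKM, a 10.01-fold difference (log2 fold change 3.32, SE 0.11, adjusted p = 2.05e-09 by limma). Hcar1, the lactate receptor that lies beside it on chromosome 5, had at most 3 reads in any library. Sucnr1, the succinate receptor, had no read in 5 libraries, which allows up to 0.106 to 0.116 FPKM in each, and 2 reads in the third GPR35-positive library. Neither could be compared between the groups at this depth.

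Ffar4 and Ffar2 were the only receptors of the 40 that were called lower. P2ry10 had a ratio of means of 0.595, but its groups overlapped and it was not called. Ffar4, a receptor for long-chain fatty acids, went from 61.9, 68.8 and 71.2 FPKM to 41.4, 40.9 and 40.3 FPKM (log2 fold change -0.70, SE 0.07, adjusted p = 1.42e-05 by limma). The groups were well apart, and the call stood under every alternative run. Its ratio of means was 0.607, beside 0.657 for the summed hepatocyte and hepatoma markers, whose part in this fall was not tested. Ffar2, a receptor for short-chain fatty acids that neutrophils are known to carry, had 20.5, 16.3 and 16.4 FPKM against 14.4, 14.7 and 14.1 FPKM. In the fit without a filter, where its adjusted p was 0.0486, the call was lost when any library other than GPR35-negative replicate 1 was left out (adjusted p = 0.0566 to 0.161). The gap between the lowest GPR35-negative and the highest GPR35-positive library was small. Its log2 fold change of -0.28 (SE 0.09, adjusted p = 0.0227 by limma) lost its call without GPR35-negative replicate 1 (adjusted p = 0.0601), under median-of-ratios scaling (adjusted p = 0.188) and without GPR35-positive replicate 3 (adjusted p = 0.0744).

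**Figure D2:**
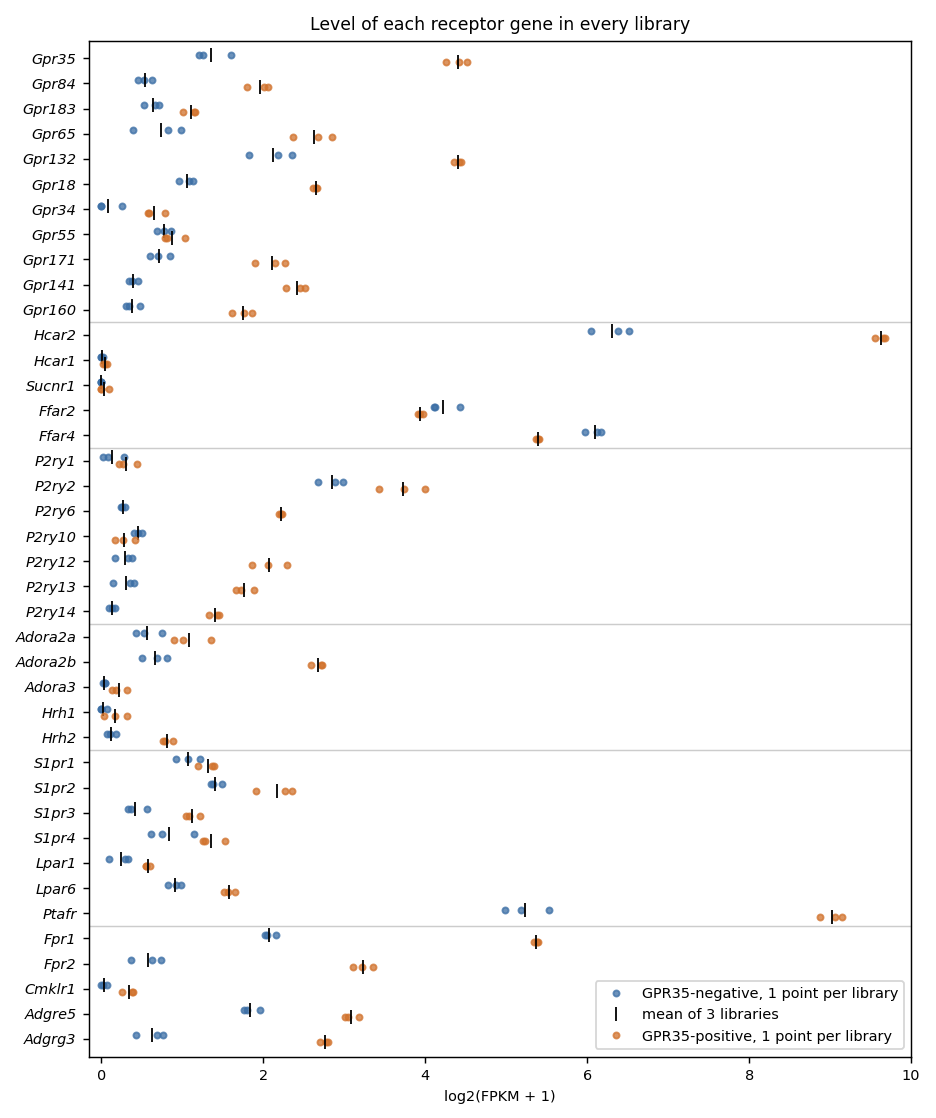
Level of each of the 40 receptor genes as log2(FPKM + 1) on the x axis, with 1 point per library, blue for GPR35-negative and orange for GPR35-positive, and a black tick at the mean of 3 libraries; grey lines divide the classes. The orange points lie to the right of the blue ones for 32 receptors and to the left for Ffar2 and Ffar4. For Hcar1, counted in the 32, replicate 2 of each group had 1 read.

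Of 7 receptors in the nucleotide class 5 rose without a filter, beside 17.4% of 19818 genes. Of these 5 receptors, 3 had larger ratios than Gpr35. P2ry6, the UDP receptor, went from 0.221, 0.184 and 0.198 FPKM to 3.64, 3.58 and 3.71 FPKM, the largest ratio of the whole list at 18.1-fold. P2ry14, which binds UDP-glucose and is known to act in neutrophil movement, went from 0.0944, 0.128 and 0.0689 FPKM to 1.70, 1.51 and 1.74 FPKM, or 17.0-fold. P2ry12, the ADP receptor of platelets and microglia, went from 0.296, 0.255 and 0.125 FPKM to 3.90, 2.65 and 3.15 FPKM, or 14.3-fold. These large ratios started from 5 to 24 reads per GPR35-negative library, so they are less precise than the ratio of Gpr35.

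P2ry13, another ADP receptor, rose 10.2-fold to 2.39 ± 0.273 FPKM (SD, n = 3). P2ry2, the ATP and UTP receptor that guides neutrophils, stood at 6.38, 6.91 and 5.40 FPKM and at 9.75, 14.9 and 12.3 FPKM. It was the most abundant of the class in both groups and had the smallest rise of the 5, at 1.98-fold. Of the 5 platelet markers 2 were tested. Pf4 was higher, with means of 2.27 and 18.3 FPKM, and Ppbp lower, with 67.3 and 52.8 FPKM. Below the filter, Itga2b averaged 0.345 and 0.204 FPKM, Gp9 was at 0 in the negative group and at 0.265, 0.417 and 0.186 FPKM in the positive group, and Gp1bb was at 0 in all 6 libraries. The part of platelets in the P2ry12 result was not tested. The exons of P2ry12 overlap those of Med12l on the opposite strand, and no source used here says whether the authors' counting used strand. P2ry1 and P2ry10, a lysophosphatidylserine receptor of lymphocytes, stayed under 0.5 FPKM in every library, their groups overlapped and neither was called. Of the 50-base stretches of P2ry10, 3.79% are shared with P2ry10b.

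Adenosine and histamine receptors were low, and 4 of 5 rose without a filter, beside 17.4% of 19818 genes. Adora2b, which raises cyclic AMP at high adenosine, was the highest, at 0.754, 0.608 and 0.413 FPKM and at 5.54, 5.61 and 5.002 FPKM, a 9.10-fold difference. Hrh2, the histamine receptor that also raises cyclic AMP, went from 0.0782, 0.129 and 0.0535 FPKM to 0.718, 0.846 and 0.699 FPKM (adjusted p = 5.06e-05 by limma without a filter). Both were well apart between the groups. Adora2a, the adenosine receptor best known for damping leukocytes, had 0.484 ± 0.172 against 1.14 ± 0.368 FPKM (SD, n = 3), and its call (adjusted p = 0.0204 by limma without a filter) was lost when any of 4 libraries was left out (GPR35-negative replicates 1 and 3, GPR35-positive replicates 2 and 3). Adora3 had 1 or 2 reads in each GPR35-negative and 6 to 16 in each GPR35-positive library. Its call (adjusted p = 0.0219) was also lost without any of 4 libraries (every GPR35-negative replicate and GPR35-positive replicate 3), and 19.4% of its 50-base stretches occur in other genes, Tmigd3 among them. Hrh1 had 0, 4 and 0 reads and 19, 9 and 2 reads, and was not called.

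Ptafr, the receptor of platelet activating factor, carried the largest log2 fold change of the list at a pseudocount of 1, and the next to largest, after Fpr2, at 0.1. Its values were 45.2, 35.4 and 30.7 FPKM in the GPR35-negative group and 567, 468 and 532 FPKM in the GPR35-positive group, a ratio of means of 14.1 (log2 fold change 3.79, SE 0.13, adjusted p = 2.38e-09 by limma). The lysolipid receptors beside it rose far less, by 1.93-fold to 3.41-fold for the called S1pr2, S1pr3, S1pr4, Lpar1 and Lpar6. S1pr2, a sphingosine phosphate receptor that restrains cell movement, had 1.81, 1.59 and 1.56 FPKM against 2.76, 4.09 and 3.81 FPKM. S1pr1, which draws lymphocytes out of tissue, had 0.895, 1.10 and 1.33 FPKM against 1.63, 1.29 and 1.58 FPKM, and its groups overlapped. Its log2 fold change of 0.24 had an adjusted p of 0.0456 by limma with the filter and 0.112 without it, and 0.0140 to 0.164 over the alternatives, in 8 of which it was not called. S1pr4, a sphingosine phosphate receptor of blood cells, was called with the filter (adjusted p = 0.00617 by limma) and without it (adjusted p = 0.0308), the latter only with all libraries or without GPR35-negative replicate 2. Lpar6, whose exons overlap those of Rb1 on the opposite strand, rose 2.25-fold, and Lpar1, a lysophosphatidic acid receptor, rose 2.66-fold from 0.183 ± 0.1001 FPKM (SD, n = 3).

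All 5 peptide and adhesion receptors rose without a filter, beside 17.4% of 19818 genes. Fpr1, the high-affinity receptor for bacterial and mitochondrial formyl peptides, had 3.46, 3.12 and 3.07 FPKM against 40.6, 39.5 and 40.9 FPKM, 12.5-fold higher. Fpr2, its lower-affinity relative, had 0.671, 0.546 and 0.294 FPKM against 9.19, 7.65 and 8.30 FPKM, 16.6-fold higher. Fpr1 was thus the more abundant of the pair in every library. Of the 50-base stretches of Fpr2, 6.41% are shared with other genes, mostly with the overlapping Fpr3, so its level is less certain.

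Adgrg3, the neutrophil adhesion receptor GPR97, went from 0.613, 0.701 and 0.350 FPKM to 5.85, 5.98 and 5.47 FPKM. Adgre5, the pan-leukocyte receptor CD97, had a higher starting level of 2.58 ± 0.259 FPKM and a smaller rise to 7.46 ± 0.569 FPKM (SD, n = 3), or 2.89-fold, and its exons overlap those of Ddx39 on the opposite strand. Cmklr1, the chemerin receptor, had 3, 1 and 0 reads against 18, 17 and 12 reads and rose in the fit without a filter (adjusted p = 0.00121 by limma).

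Placed among the 40 by mean level, Gpr35 was the 10th in GPR35-negative and the 6th in GPR35-positive libraries. In GPR35-negative libraries Hcar2, Ffar4, Ptafr, Ffar2 and P2ry2 led the order with means of 79.2, 67.3, 37.1, 17.7 and 6.23 FPKM, and the ranges of Hcar2 and Ffar4 overlapped. The neighbours of Gpr35 at 1.57 FPKM were S1pr2 at 1.66 FPKM above it and S1pr1 at 1.11 FPKM below it, and its range overlapped both. In GPR35-positive libraries Hcar2 and Ptafr led with 793 and 522 FPKM, followed at a distance by Ffar4 at 40.9 and Fpr1 at 40.3 FPKM, whose ranges overlapped. Gpr132 and Gpr35 came next, both at 20.2 FPKM and with overlapping ranges, then Ffar2 at 14.4, P2ry2 at 12.3 and Fpr2 at 8.38 FPKM. By ratio of means Gpr35 was the 7th, after P2ry6, P2ry14, Fpr2, P2ry12, Ptafr and Gpr141. By log2 fold change it was the 4th at a pseudocount of 1, after Ptafr, Hcar2 and Fpr1. At a pseudocount of 0.1 it was again the 4th, but after Fpr2 (3.86), Ptafr (3.83) and P2ry6 (3.64), with Gpr35 at 3.62, Fpr1 at 3.61 and Hcar2 at 3.33, so the order near Gpr35 depends on this choice. At a pseudocount of 1 its nearest receptors by log2 fold change were Fpr1, Hcar2, Fpr2, Ptafr and Gpr132, at distances of 0.24, 0.27, 0.40, 0.74 and 0.76. Since the libraries were divided by GPR35, its place by change is not on the same footing as those of the other receptors.

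The ratio of Gpr35 to another receptor within a library does not depend on the depth or scaling of that library. For 21 of the other 39 receptors the ratio was higher in all 3 GPR35-positive libraries than in any GPR35-negative one, so Gpr35 differed more than these. The same count was not made over all genes. The fit without a filter called 17.4% of 19818 genes higher, but that share is by level and not by ratio to Gpr35. The libraries were divided by GPR35, so the design favours a higher ratio in the GPR35-positive group. The count is therefore not read as a trait of these receptors. The ratio to Gpr132 was 0.491, 0.391 and 0.514 in GPR35-negative and 0.891, 1.06 and 1.05 in GPR35-positive libraries, and the ratio to Ffar4 went from 0.0327, 0.02002 and 0.0182 to 0.439, 0.536 and 0.507. For 12 receptors the ranges overlapped. The ratio to Fpr1 was 0.585, 0.442 and 0.423 against 0.447, 0.555 and 0.499, and the ratios to Ptafr, Fpr2, Gpr65, Gpr141, P2ry1, P2ry12, P2ry13, P2ry14, Adora3, Hrh2 and Adgrg3 overlapped as well. Only P2ry6 lay the other way, at 9.17, 7.49 and 6.56 against 4.99, 6.11 and 5.51. For Gpr34, Hcar1, Sucnr1, Hrh1 and Cmklr1 a library was at 0 and no full comparison was made. These comparisons are descriptions without a test.

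**Figure D3:**
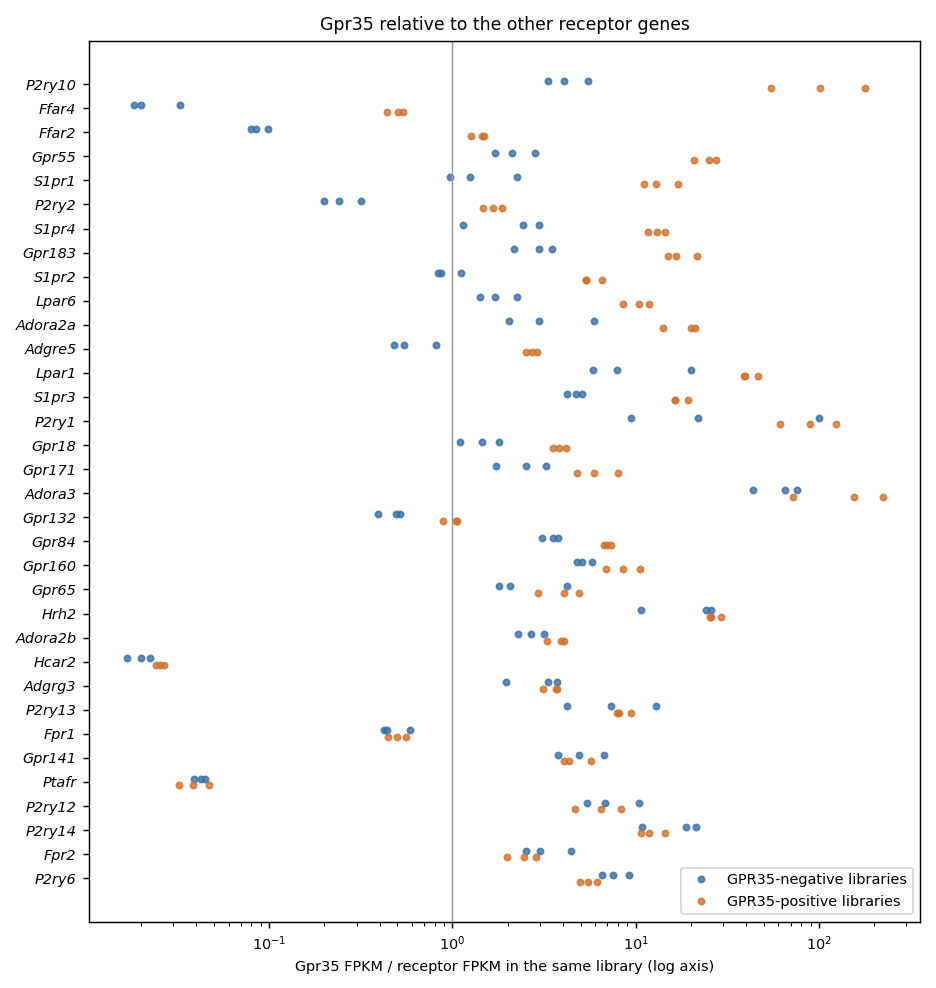
FPKM of Gpr35 divided by FPKM of each other receptor in the same library (log x axis), with 1 point per library, blue for GPR35-negative and orange for GPR35-positive, for the 34 receptors above 0 in every library. The points are far apart for P2ry10, Ffar4 and Ffar2 at the top, and they mix for Fpr1, Ptafr and Fpr2 near the bottom, where only P2ry6 has lower ratios in all GPR35-positive libraries.

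The receptors were then set against the neutrophil markers. The geometric mean of the 15 markers, none of them a receptor of the list, was 14.4, 12.5 and 9.9997 FPKM in GPR35-negative and 109, 109 and 112 FPKM in GPR35-positive libraries. Each library was divided by its own value and the same limma test was run on every gene above 0, with no filter, so that all 40 receptors entered. A value of 0 stands for a gene that differed as much as the geometric mean of the markers did. The ratios of means of the single markers ran from 5.30 for Ly6g to 12.2 for Il1r2, and the test does not count this spread. On this scale GPR35-positive libraries had 1.29% of 19818 genes higher and 63.8% lower. Of the 40 receptors, 8 were higher, 17 lower and 15 not called.

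The 8 receptors higher than the geometric mean of the neutrophil markers were Ptafr, Fpr2, P2ry6, Gpr35, Fpr1, Gpr141, P2ry12 and P2ry14. Ptafr stood 0.65 above the markers (SE 0.11, adjusted p = 0.00182 by limma), Fpr2 0.63 (SE 0.13, adjusted p = 0.00566) and P2ry6 0.46 (SE 0.07, adjusted p = 0.00109), all on the log2 scale. These 3 were called in every fit against the markers that was run. Gpr35 stood 0.45 above them (SE 0.12, adjusted p = 0.0136), an excess far smaller than its difference of 3.05 before the division. Its ratio of means was 12.9, beside 12.2 for Il1r2, the highest of the markers. The groups were divided by GPR35, which bears on this excess too, and the call of Gpr35 was not stable. It was lost without GPR35-positive replicate 2 (0.37, adjusted p = 0.0556), without GPR35-positive replicate 3 (0.44, adjusted p = 0.0526) and with the summed FPKM of the markers as the divisor (0.32, adjusted p = 0.0693). P2ry12 lost its call without any library other than GPR35-positive replicate 2, and Gpr141 without GPR35-positive replicate 1 or 3. The count of 8 became 5 without GPR35-positive replicate 3.

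With the filter the division gave 1.84% of 10060 genes higher and 94.0% lower, and the same 8 receptors were higher. Of these, Fpr2, P2ry6, Gpr141, P2ry12 and P2ry14 had passed the filter through the GPR35-positive group alone, so that count is not read. There Gpr35 (adjusted p = 0.00698) lost its call without GPR35-negative replicate 2 (0.38, adjusted p = 0.0666). Macrophage markers, whose sum was 21.8-fold higher in GPR35-positive libraries against 10.02-fold for the neutrophil markers, had a larger ratio than any of these receptors, and their part in the excess was not tested.

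Among the 15 receptors not told apart from the markers, Hcar2 lay at 0.16 with an interval from -0.08 to 0.39, Adgrg3 at 0.16 with -0.16 to 0.48, and Adora2b at 0.03 with -0.21 to 0.27. Such intervals do not show that these genes move exactly as the markers do. P2ry13, Gpr65 and Gpr160 were not called either. The other 9, Gpr34, Cmklr1, Sucnr1, Hrh1, Hrh2, Hcar1, Adora3, P2ry1 and Lpar1, were too low for the filter, and at such levels the pseudocount pulls any difference towards 0. The 17 that rose less than the markers, or fell, were Gpr84, Gpr183, Gpr132, Gpr18, Gpr171, Gpr55, P2ry2, P2ry10, Adora2a, Lpar6, Adgre5, all 4 sphingosine phosphate receptors, Ffar2 and Ffar4. Gpr132 lay at -0.51 (adjusted p = 0.00196 by limma), Adgre5 at -1.33, P2ry2 at -1.96, Ffar2 at -3.23 and Ffar4 at -3.80.

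**Figure D4:**
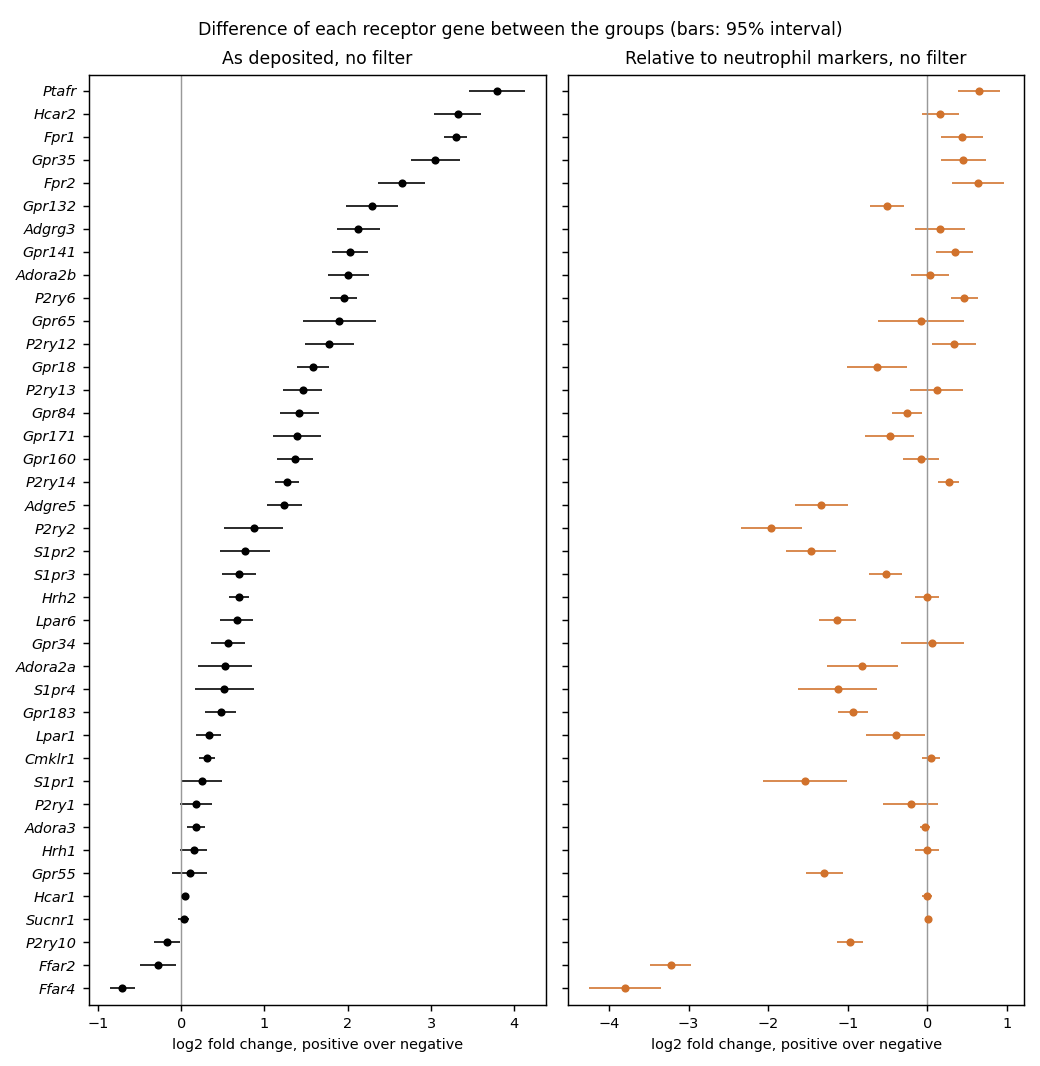
Log2 fold change of each receptor, GPR35-positive over GPR35-negative, with 95% intervals from limma: left, the 40 receptors in the fit without a filter, ordered by size; right, the same 40 relative to the neutrophil markers, also without a filter. Ptafr, Hcar2, Fpr1 and Gpr35 head the left panel at 3.79 to 3.05, while in the right panel Hcar2 spans 0, Gpr35 is at 0.45 and Ffar4 is at -3.80.

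Several of the receptors lie side by side in the genome, so their values were compared within each group of neighbours (GRCm38). Gpr171, P2ry14, P2ry13 and P2ry12 share chr3:59096448-59262871, a span of 166 kb, and all 4 rose, by 5.15-fold, 17.0-fold, 10.2-fold and 14.3-fold. P2ry6 and P2ry2 lie within 75.2 kb on chr7:100937630-101012866 and rose 18.1-fold and 1.98-fold. Hcar2 and Hcar1 lie within 16.5 kb on chr5:123863570-123880020, where Hcar2 had 1970 to 28413 reads per library and Hcar1 at most 3. Fpr1 and Fpr2 share 17.5 kb on chr17:17876471-17893952, and Gpr18 and Gpr183 share 53.9 kb on chr14:121911253-121965195 and rose 4.85-fold and 2.09-fold. All neighbours on chromosomes 3, 7, 14 and 17 thus rose, beside 31 of all 40 receptors in the fit without a filter. That fit called 17.4% of 19818 genes higher. The part of position in these rises was not tested. Their ratios differed most on chromosome 7, and levels differed most on chromosome 5.

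Genes that make, release or break down the ligands of these receptors went both ways. Without a filter 55 of the 56 listed genes were fitted, of which 21 rose, 19 fell and 15 were not called. Over all 19818 genes of that fit, 17.4% rose and 22.1% fell. With the filter 44 were tested, 19 rose and 19 fell, beside 23.3% and 45.5% of all genes tested. The median of their log2 fold changes with the filter was -0.03, beside -0.19 over all genes tested. As that filter favours genes high in 1 group, the counts and median with it are not read further. Entpd1, the CD39 enzyme that degrades extracellular ATP and ADP, rose from 8.81, 7.71 and 8.38 FPKM to 98.3, 98.3 and 104.4 FPKM. Hdc, which makes histamine, rose from 11.8, 9.93 and 8.39 FPKM to 114, 121 and 118 FPKM. Lpcat2, which makes platelet activating factor, and Pla2g7, which degrades it, rose 14.1-fold and 6.38-fold, with log2 fold changes of 3.45 and 2.62. On the falling side were Pafah1b3, a subunit of a platelet activating factor hydrolase, Plpp3, which removes phosphate from lysolipids, Agpat2, an acyltransferase that uses lysophosphatidic acid, and Slc29a2, a nucleoside transporter. Their ratios of means lay between 0.569 and 0.647, beside 0.657 for the summed hepatocyte and hepatoma markers.

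Other receptors of the same families also went both ways. Without a filter 51 of the 55 listed genes were fitted, of which 13 rose, 14 fell and 24 were not called. The shares over all 19818 genes were 17.4% higher and 22.1% lower. With the filter 22 were tested, 9 rose and 11 fell, beside 23.3% and 45.5% of 10060 genes. Adgre1, named below, passed the filter through the GPR35-positive group alone, so the count with the filter is not read further. Ccrl2, a chemerin-binding receptor that does not signal through G proteins, was more abundant than any of the 40, with 171, 156 and 144 FPKM against 1796, 1772 and 1893 FPKM. Adgre1, which encodes F4/80 and is also among the macrophage markers, rose from 0.540 ± 0.167 to 18.2 ± 1.55 FPKM (SD, n = 3), a 33.8-fold difference that exceeds all ratios in the list of 40. Mrgpra2b, a neutrophil receptor of the Mas-related family, and Gpr137b, a lysosomal protein, rose 12.7-fold and 4.72-fold. Gprc5b, Gprc5c, Gprc5a and Gpr39 fell, with ratios of means between 0.552 and 0.624.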

How the data were processed

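RNA of 6 libraries was analysed, 3 per group, grouped and numbered by their titles. The authors deposited 1 table of FPKM per gene, per the file headers, and all 6 of its value columns were used. Per the submitters' processing notes, the tools were DESeq 1.38.3, HTSeq 0.9.1, HISAT2 2.1.0 and fastp 0.22.0, with no roles given, and the build was the human GRCh38, although the table holds mouse Ensembl IDs. The annotation and strand setting are not given in the sources used here. Trizol RNA and a NEBNext Ultra II kit were used, per the labels' protocols.

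Symbols, positions and exon lengths came from GENCODE M21 (GRCm38), which held 21902 of 21959 IDs. These lengths turned 97.7% of the values above 0 into whole reads, to within 0.02 reads. No replicates agreed within sampling noise (mean chi-square 4.66 to 18.6 per gene). The unit is FPKM, so the test was limma-trend (limma 3.58.1, R 4.3.3) on log2(FPKM + 1), with no term beside group, two-sided, adjusted by Benjamini-Hochberg over every gene tested. All adjusted p-values are from it. Log2 fold changes are on this scale, which understates changes of low genes, and other folds are ratios of mean FPKM. Genes had to reach 1 FPKM in 3 libraries. Since that filter favours genes high in 1 group, a fit of all 19818 genes above 0 accounts for every receptor. The neutrophil gauge is the geometric mean FPKM of the 15 markers in a library.

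The receptors and lists were chosen with earlier results of these data known. Beyond the receptors, the rule named up to 4 tested genes per direction of each list, those with the smallest p. Alternatives were pseudocount 0.1, no filter, a mean filter, median-of-ratios scaling, limma-voom on recovered reads, a summed gauge, a replicate block and leaving out each library, which kept the genes tested with all 6. Their combinations with no filter, also for the gauge, were chosen after seeing the data. Genes were matched by symbol to promoters of RefSeq (GRCm38.p6). The script was tested on simulated data. Python 3.11.15, numpy 2.4.6, pandas 2.3.3 and matplotlib 3.10.9 were used.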

Additional observations from a re-analysis of the deposited data

How the results depend on the processing

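No receptor changed direction past the threshold under any alternative. With the filter, the 26 receptors higher ranged from 25 to 26 and the 2 lower from 1 to 2 when a library was left out. Without the filter, the 31 higher ranged from 28 to 30 and the 2 lower from 1 to 2. Relative to the neutrophil markers, the 8 higher ranged from 5 to 8 both with and without the filter, the 14 lower with it from 13 to 15 and the 17 lower without it from 15 to 18. With median-of-ratios scaling the receptors lower became 1, with and without the filter, and all genes lower became 3036 of 10060 and 2654 of 19818. limma-voom on the recovered reads, without a filter, also called P2ry1 (adjusted p = 0.0388) and Hrh1 (adjusted p = 0.0243) higher. Leaving out a library added P2ry10 as lower (without GPR35-positive replicate 1, adjusted p = 0.0219), and Hcar1 (without replicate 2, adjusted p = 0.0477) and Hrh1 (without replicate 3, adjusted p = 0.0405) as higher, all without a filter. Relative to the markers, Gpr65 with the filter became lower without GPR35-negative replicate 3 (-0.33, adjusted p = 0.0268). Without the filter, Gpr34 became higher than the markers without GPR35-negative replicate 1 (0.30, adjusted p = 0.00224). The cause of these changes was not tested. Depth limits Hcar1 and Sucnr1 most, with at most 3 reads in any library.

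Whether equal replicate numbers mark paired libraries is not stated in the sources used here. Deviations of same-numbered libraries correlated at -0.0018, 0.40 and -0.064. Deviations from a mean of 3 libraries are tied to each other, so these values cannot settle it. The main test used no block. With the replicate block, 25 receptors were higher and 2 lower with the filter, S1pr1 being lost (adjusted p = 0.0517), and 31 higher and 1 lower without it, Ffar2 being lost (adjusted p = 0.0621). Relative to the markers the block gave 8 higher and 13 lower with the filter, and Gpr84 was lost (adjusted p = 0.0562). Without the filter it gave 5 higher and 16 lower, with Gpr35 (adjusted p = 0.0528), Gpr141 (adjusted p = 0.0583) and P2ry12 (adjusted p = 0.0508) lost among the higher. Only the libraries numbered 2 correlated best with the library of their own number.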
